A study of Mus musculus with 24 samples.

Results

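Protein folding in the endoplasmic reticulum (ER) and the unfolded protein response were described in mouse pancreatic islets through 42 genes. The genes were taken from a list of symbols and matched by NCBI Gene number to a table of 28059 genes. All 42 had a value, and all 42 reached 1 RPKM (reads per unit of gene length, scaled by the depth of each library) in at least 4 libraries, as did 14342 genes in all. Their lowest value in any library was 1.99 RPKM, for Derl3. By role, 11 are chaperones and co-chaperones, 6 are disulfide and prolyl isomerases, 5 are stress sensors or belong to the XBP1 and ATF6 arms, 4 belong to the ATF4 arm, 8 serve ER-associated degradation and 8 serve translocation and removal of the signal peptide.

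The study sequenced RNA from cultured, handpicked islets of mice on a mixed background, aged 3-4 months, and asked what loss of the ubiquitin ligase gene Cop1 changes and which changes need the ETV transcription factors. Sample numbers divide the 22 libraries into 2 sets. All groups carry floxed Cop1 (Cop1 fl/fl). Controls are labelled without Cre, with 3 libraries in set 1 and 4 in set 2. Cop1 deletion libraries also carry Pdx1.CreERT2, with 3 in set 1 and 4 in set 2. In set 1, a further 4 libraries are labelled as Cop1fl/fl with Pdx1.CreERT2, joined by Etv1fl/fl, by Etv4ko/ko and by Etv5fl/fl, and are called Etv1/4/5 libraries here. In set 2, a further 4 are labelled as Cop1fl/fl with Pdx1.CreERT2, joined by Etv4ko/+ and by Etv5fl/fl, keep 1 Etv4 allele and are called Etv4/5 libraries here. Pdx1.CreERT2 is a Cre recombinase fused to part of an estrogen receptor and driven by the promoter of Pdx1, a gene expressed in β cells. Deletion is directed to these cells by design, and whether other cells of the islet also lost Cop1 was not tested. Since controls are labelled without Cre, presence of Cre and loss of Cop1 cannot be told apart by the labels. Nothing in the labels ties replicates to mice, and p-values then measure the spread between these libraries.

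Proteins that enter the ER are folded by chaperones, joined by disulfide bonds and checked before they leave, and those that fail are drawn back out and degraded. When unfolded protein builds up, IRE1 (Ern1) splices the mRNA of Xbp1, ATF6 is cut to release a transcription factor, and PERK (Eif2ak3) slows translation while favouring ATF4, which raises genes such as Ddit3 (CHOP). β cells fold and export large amounts of proinsulin and depend on these pathways.

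Relative depth, with the deepest library at 1, lay at 0.331 to 0.526 for set 1 and at 0.758 or above for set 2, and the read numbers themselves are unknown. Cop1 had 1.22 to 1.55 RPKM in set 1 controls and 0.984 to 1.13 after deletion, and 1.43 to 1.87 against 0.763 to 0.934 in set 2. Its log2 fold change was -0.33 (adjusted p = 0.066) in set 1 and -0.64 (adjusted p = 0.00011) in set 2. Esr1, whose sequence is part of CreERT2, stood at 99.1 RPKM in the library labelled control replicate 2 of set 1, against 0.169 and 0.191 in the other set 1 controls and 44.0 to 111 in the libraries with Cre. Etv4 RNA was not lower where the label is Etv4ko/ko, with 0.928 to 1.53 RPKM in the Etv1/4/5 libraries and 0.0418 to 0.118 in the other set 1 libraries. In the Etv1/4/5 libraries Etv1 had 4.89 to 5.61 RPKM and Etv5 2.57 to 4.85, against 4.23 to 5.01 and 2.31 to 3.58 after Cop1 deletion alone. RPKM per gene does not tell whether these alleles were deleted, and Etv1/4/5 below is a label only. In set 2, Etv4 had 0.778 to 1.197 RPKM in the Etv4/5 libraries, 0.551 to 1.64 after Cop1 deletion and 0.349 to 0.661 in controls, and Etv5 had 1.39 to 1.83, 1.23 to 2.75 and 2.93 to 6.99. The name Etv4/5 is likewise a label only. Etv5 fell against controls both after Cop1 deletion alone (log2 fold change -1.13, adjusted p = 0.0124, limma) and in the Etv4/5 libraries (-1.46, adjusted p = 0.00368). Between the Etv4/5 and Cop1 deletion libraries Etv5 was not called (-0.33, adjusted p = 0.514). All 4 set 2 controls expressed Xist, an RNA of the inactive X chromosome in females, as did 2 of the 4 Cop1 deletion libraries (not replicates 2 and 3) and 2 of the 4 Etv4/5 libraries. In set 1 it was expressed in 1 of 3 controls, 1 of 3 Cop1 deletion libraries and 2 of 4 Etv1/4/5 libraries. The insulin genes held 31.5 to 41.1% of total RPKM in set 1 and 21 to 30.7% in set 2, and 6 of 10 β-cell markers fell after Cop1 deletion in each set (4.29% and 9.75% of all genes fell), while Iapp rose in set 2 (0.44, adjusted p = 0.0346). Fewer cells of a type and less RNA per cell cannot be told apart in bulk RNA. The summed acinar markers (digestive enzymes of the exocrine pancreas) were at 3573 to 20788 RPKM for set 1 and, across set 2, 1095 to 29870. Ductal markers summed to 332 to 423 RPKM in set 2 controls, 754 to 926 after Cop1 deletion and 599 to 625 in the Etv4/5 libraries, without overlap, and to 184 to 308 in set 1. Krt7 weighs most in this sum, with a median of 239 RPKM over all libraries against at most 29.3 for each other marker. In the Etv4/5 libraries against controls Krt7 had a log2 fold change of 1.05, while the median of the 8 ductal markers tested was -0.298. After Cop1 deletion in set 2 that median was 0.875. Macrophage markers summed to 162 and 170.4 RPKM in Cop1 deletion replicates 2 and 3 of set 2 and to at most 93.9 elsewhere. The part of these cells in the results was not tested beyond the acinar covariate below.

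Some libraries stood apart in these 42 genes. Control replicate 4 of set 2 was the highest library of its set for 19 members (45.2%, against 18.4% of all genes tested), and it had the lowest acinar sum of all libraries and the highest heat shock and immediate early sum of set 2 (221 RPKM, against 80.5 to 134 in the other set 2 libraries). Control replicate 3 of set 1 was the lowest of its set for 25 members (59.5%, against 15.5% of all genes), with a heat shock sum of 6809 RPKM against 1910.0 to 5391 in the rest of set 1. Cop1 deletion replicate 2 of set 1 was the highest for 18 members (42.9%, against 12.2% of all genes). Cop1 deletion replicate 2 of set 2 was the lowest for 11 members (26.2%) and for 30.6% of all genes, and its B and plasma cell markers summed to 78.5 RPKM, against 3.61 to 34.0 in the other set 2 libraries. Whether these differences take part in the results was not tested, and counts without these libraries stand beside the results below.

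**Figure D1:**
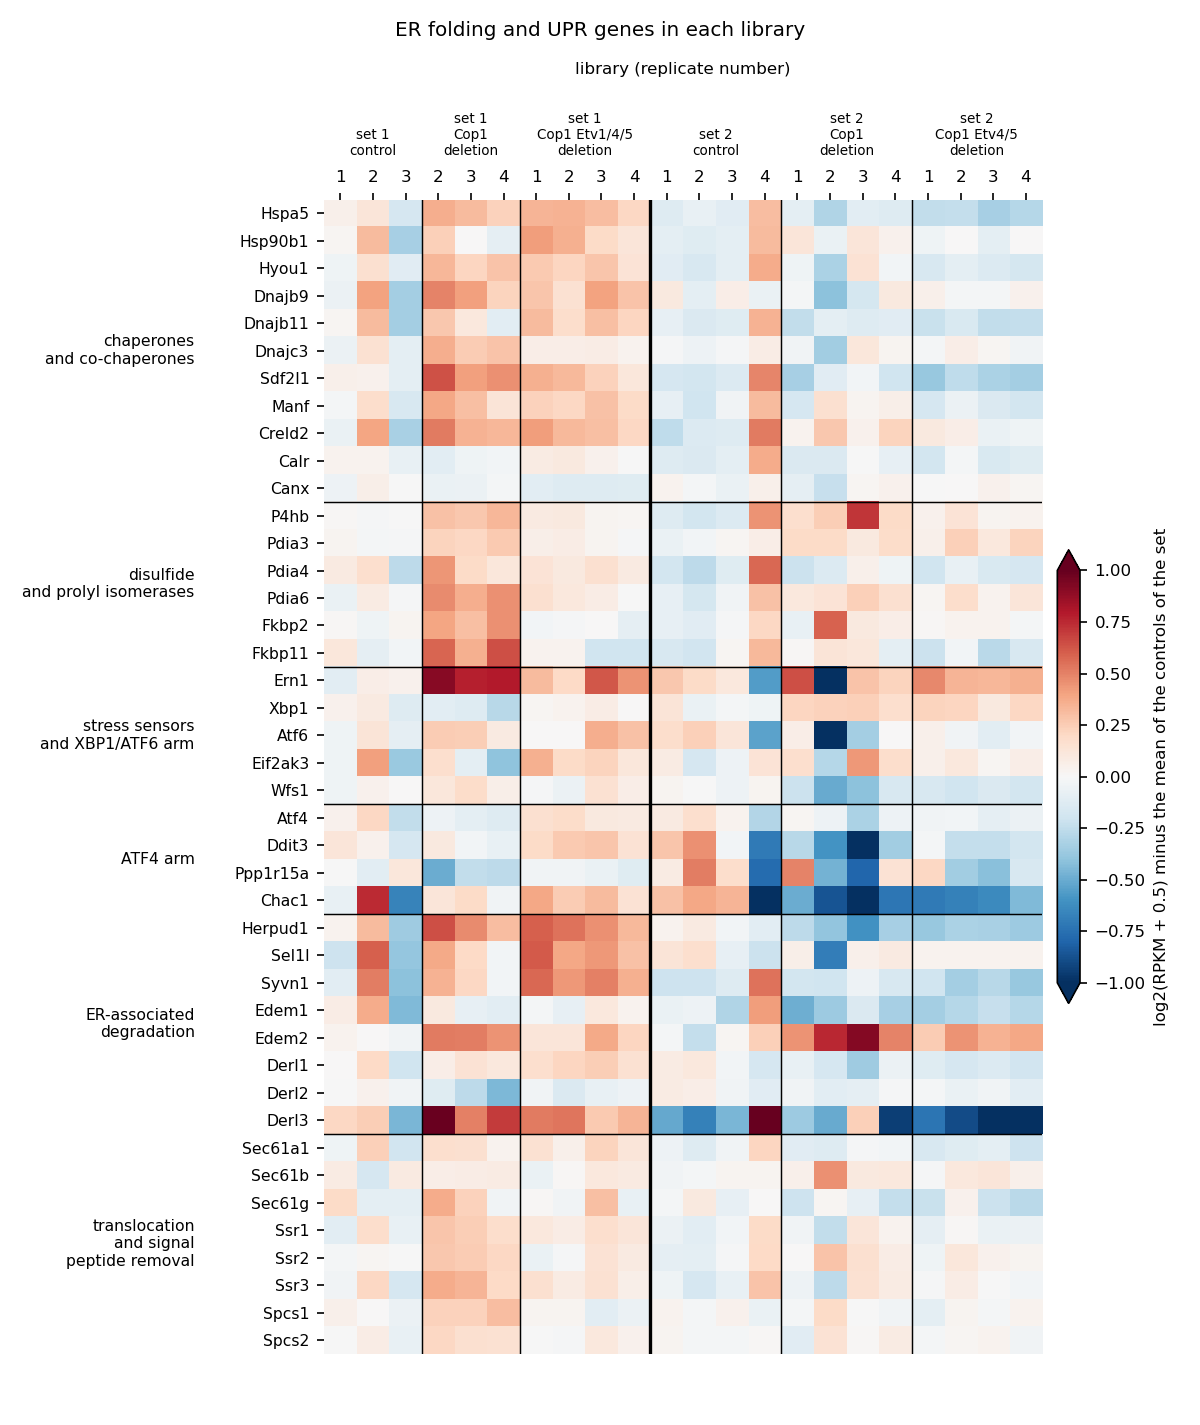
Level of each of the 42 genes in each of the 22 libraries, as log2(RPKM + 0.5) minus the mean of the control libraries of the same set, with genes in rows by role. Control replicate 4 of set 2 is high across the chaperones and isomerases and low in the ATF4 arm, and set 1 Cop1 deletion libraries are high in most isomerases.

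Short stretches of promoter are shown for 5 members that hold an element known from ER stress genes, and for 2 with an ATF4-type core (Herpud1 and Chac1). Of the 5, 2 were called in set 1 (Dnajc3 and Pdia6), where 8.33% of all genes were called. The other 3 (Hspa5, Calr and Canx) were called in no comparison of the main model, though Hspa5 and Canx were under some other settings. RefSeq promoters of GRCm38.p6 (250 bases before and 50 after the start of the gene) were found for 36 of the 42 members and searched on both strands, with overlapping matches counted. The ER stress response element (ERSE), CCAAT and CCACG with any 9 bases between them, binds NF-Y together with ATF6 or XBP1. It was found in 9 of the 36 members (25%), and in 37 of 27025 genes (0.137%). The element is known from ER stress genes, which the list was chosen to hold, so this contrast is no test. The core of the C/EBP-ATF response element, TGATGNAA, is bound by ATF4 and was found in 2 of 36 members and in 4.51% of all genes. ERSE-II, which is ATTGG and CCACG with any 1 base between them, was found in Herpud1 and Dnajb11 (5.56% of members, 0.0444% of genes). The capitals mark the matches, each read 5′ to 3′ on the strand of the gene with 15 flanking bases.
Hspa5: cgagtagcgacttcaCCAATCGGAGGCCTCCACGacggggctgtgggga
Dnajc3: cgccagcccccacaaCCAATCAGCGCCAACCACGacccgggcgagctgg
Pdia6: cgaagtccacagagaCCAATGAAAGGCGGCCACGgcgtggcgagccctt
Calr: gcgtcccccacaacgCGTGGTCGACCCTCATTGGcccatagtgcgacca
Canx: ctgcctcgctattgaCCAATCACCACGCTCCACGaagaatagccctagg
Herpud1: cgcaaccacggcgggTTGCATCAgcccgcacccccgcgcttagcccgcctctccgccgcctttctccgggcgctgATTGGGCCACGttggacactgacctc
Chac1: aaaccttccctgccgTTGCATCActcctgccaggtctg

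The Hspa5 stretch lies at chr2:34772010-34772058 on the plus strand, and the Dnajc3 stretch at chr14:118937812-118937860 on the plus strand. Pdia6 is shown at chr12:17266476-17266524 on the plus strand, Calr at chr8:84847060-84847108 on the minus strand and Canx at chr11:50325785-50325833 on the minus strand. Herpud1 is shown at chr8:94386302-94386402 and Chac1 at chr2:119351034-119351071, both on the plus strand. Herpud1 holds an ATF4-type core and an ERSE-II in the same stretch, and Chac1 holds the ATF4-type core alone. The other members with an ERSE were Hsp90b1 (with 2 of them), Creld2, Derl3 and Syvn1. CCGGAAGT, a site of the kind that ETS factors such as ETV1, ETV4 and ETV5 can bind, was found in the promoters of Ddit3, Fkbp2 and P4hb, which is 8.33% of members against 4.31% of all genes. TGACGTG, the core of the unfolded protein response element, was found in Fkbp11 and Hspa5 (5.56%, against 2.22% of all genes). These matches are letters in a window and were not tested for binding.

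After Cop1 deletion, 4 of the 6 disulfide and prolyl isomerases (Pdia3, Pdia6, Fkbp2 and Fkbp11) rose in set 1, together with Edem2, Herpud1, Sdf2l1, Dnajc3 and Spcs1, and Derl2 fell. In set 2, Edem2, Pdia3 and Xbp1 rose, and Ddit3, Chac1, Herpud1 and Wfs1 fell. In set 1, 9 of 42 members rose (background 4.04% of all genes tested) and 1 fell (background 4.29%), or 23.8% of members against 8.33% of genes in either direction. The median log2 fold change was 0.213 over the members and -0.00568 over all genes, and 33 members were above 0. In set 2, 3 members rose (background 9.09%) and 4 fell (background 9.75%), or 16.7% against a background of 18.8%, with a median of -0.0679 against -0.0171 over all genes and 15 members above 0. So the share called in set 2 was no higher than among genes at large. Over the mean of both sets, 8 members rose (background 9.57%) and 1 fell (background 10.5%), or 21.4% against 20.1%.

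These counts moved with single libraries, and the share of all genes called without each library is not given here. In set 1, between 5 and 16 members were called when each library in turn was left out, with 5 rising and none falling without control replicate 1 or without Cop1 deletion replicate 4. Without Cop1 deletion replicate 2, 5 rose and 1 fell, and without control replicate 3, 4 rose and 2 fell. Without the library labelled control replicate 2, which had the level of Esr1 seen in libraries with Cre, 12 rose and none fell and the median was 0.277. Leaving out control replicate 4 of set 2, which enters set 1 through the shared estimate of spread, gave 15 rising and 1 falling in set 1, and in set 2 it gave 6 rising and 5 falling with a median of 0.0216. Without Cop1 deletion replicates 2 and 3 of set 2, 2 members rose and 1 fell in set 2. With the level of acinar markers as a covariate, 8 rose and 1 fell in set 1, and 2 rose and 3 fell in set 2.

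**Figure D2:**
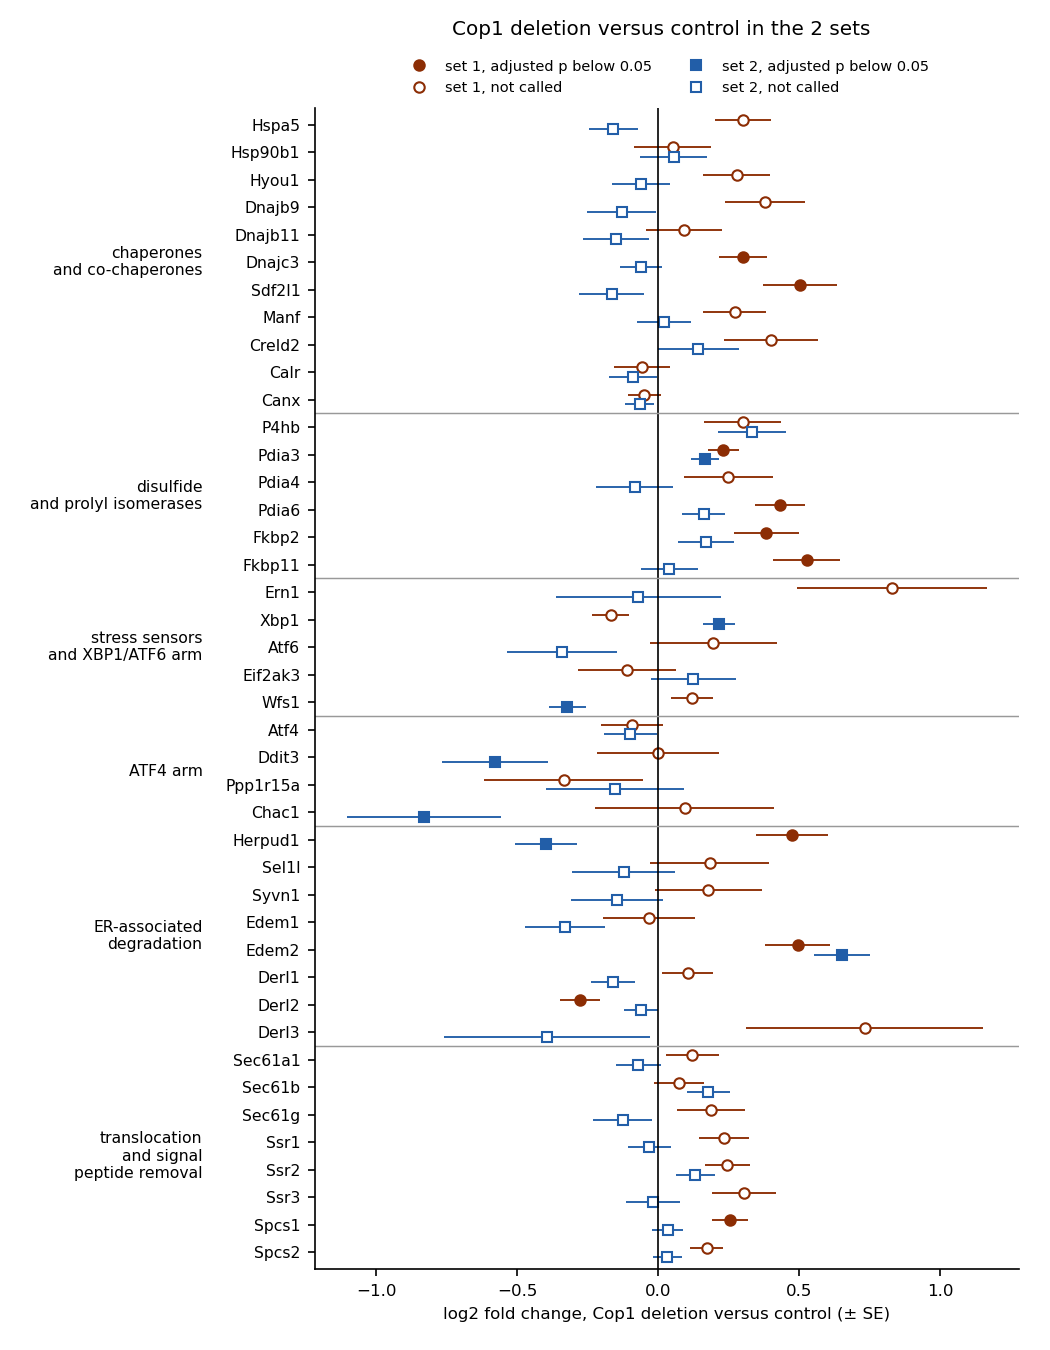
Log2 fold change of each of the 42 genes after Cop1 deletion in set 1 and in set 2, with SE bars, by role. In set 1 all 6 isomerases lie above 0, and in set 2 all 4 genes of the ATF4 arm lie below 0.

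The share of RNA given to the 42 genes together was 1.37 to 1.82% of total RPKM in set 1 controls. It was 1.87 to 2.15% after Cop1 deletion, and with the added Etv1/4/5 genotype 1.71 to 1.87%. For set 2 the share was 1.16 to 1.63% in controls, 1.04 to 1.3% after Cop1 deletion and 1.11 to 1.17% in the Etv4/5 libraries. The groups of set 2 overlapped, and those of control and Cop1 deletion in set 1 did not. As a share of total RPKM without Ins1 and Ins2, the 42 genes held 2.25 to 2.98% in set 1 controls and 2.84 to 3.28% after Cop1 deletion, where the groups overlapped. The share of insulin in the total was 38.9 to 40.7% in set 1 controls and 31.5 to 34.5% after Cop1 deletion. With each library scaled to the same total without Ins1 and Ins2, 4 members rose in set 1 (median 0.206), and 1 rose and 9 fell in set 2 (median -0.234). Under that scaling, 449 of all genes rose and 506 fell in set 1 (580 and 615 as deposited), and 632 rose and 4049 fell in set 2 (1303 and 1399 as deposited), where the median of all genes moved to -0.163. With each library scaled to the same total of all genes, 1122 genes rose and 256 fell in set 1 with a median of 0.117, and 840 rose and 1636 fell in set 2. Scaled to the same total without acinar and hormone genes, 808 genes rose and 3223 fell in set 2, with a median of -0.116.

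Among the 11 chaperones and co-chaperones, Sdf2l1 and Dnajc3 rose in set 1 and none was called in set 2. The median log2 fold change of the role was 0.278 in set 1 and -0.0652 in set 2. Sdf2l1, a partner of the chaperone BiP in the ER lumen, had 167, 166 and 150.2 RPKM in set 1 controls and 251, 214 and 222 after Cop1 deletion. The groups did not overlap (log2 fold change 0.50, SE 0.13, adjusted p = 0.0214, limma). In set 2 its controls had 108, 107, 111 and 171 RPKM and its Cop1 deletion libraries 96.9, 113, 119.6 and 106, with control replicate 4 far above the rest (-0.17, adjusted p = 0.321). The set 1 call was lost without control replicate 1, without control replicate 3 and without Cop1 deletion replicate 2, and at equal totals without Ins1 and Ins2. Dnajc3 (P58IPK), a co-chaperone of BiP that also restrains PERK, had 95.6, 111 and 93.3 RPKM in set 1 controls and 128, 119 and 121 after deletion (0.30, SE 0.087, adjusted p = 0.038). All 3 deletion libraries were above the controls, and the call was kept under 29 of 39 other settings. It was lost without control replicate 1 or 3, without any 1 of the 3 deletion libraries, and with acinar level (adjusted p = 0.0523) or heat shock level (adjusted p = 0.0502) as a covariate. Equal totals without Ins1 and Ins2, or without acinar and hormone genes, lost it too.

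Hspa5 (BiP), the main HSP70 chaperone of the ER and the most abundant of the 42, was not called in either set, though it was under some other settings. In set 1 it had 2753, 2889 and 2369 RPKM in controls and 3418, 3307 and 3122 after Cop1 deletion, with no overlap between the groups (0.30, SE 0.099, adjusted p = 0.0679). Hspa5 was called in set 1 with each set fitted alone, with library weights, with heat shock level as a covariate, and without control replicate 4 or Cop1 deletion replicate 2 of set 2. In set 2 Hspa5 had 1044, 1083, 1056 and 1409.6 RPKM in controls and 1063, 925, 1058 and 1039 after deletion (-0.16, adjusted p = 0.199), and it was called as lower there at equal totals without Ins1 and Ins2. The high control, replicate 4, lay above every other library of the set. Dnajb9, a BiP co-chaperone that curbs IRE1, had 123, 170.1 and 102 RPKM in set 1 controls and 182, 171 and 150.2 after deletion, and the groups overlapped (0.38, adjusted p = 0.117). In set 2 Dnajb9 had 160.1, 139.7, 156 and 143 RPKM against 147, 112, 132 and 159.6 (-0.13). Creld2 and Hyou1, a stress-induced ER protein and a nucleotide exchange factor of BiP, had 0.40 (adjusted p = 0.167) and 0.28 (adjusted p = 0.183) in set 1, and 0.14 and -0.06 in set 2. Hsp90b1 (GRP94), the HSP90 of the ER, was close to 0 in both sets, at 0.05 in each. The lectin chaperones Calr and Canx, which hold glycoproteins, were at -0.06 and -0.05 in set 1 and -0.09 and -0.07 in set 2. Of the 9 members with an ERSE in the promoter, Pdia6 and Dnajc3 rose in set 1 (4.04% of all genes rose), and none was called in set 2 (18.8% of all genes called). These counts are too small to be read as a trait of the element.

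Among the 6 isomerases, Pdia3, Pdia6, Fkbp2 and Fkbp11 rose in set 1, and Pdia3 rose in set 2. All 6 were above 0 in set 1 (median 0.341) and 5 of 6 in set 2 (median 0.163), and over the mean of both sets all but Pdia4 rose. At equal totals without Ins1 and Ins2, none of these 5 calls over the mean was kept. The calls of P4hb and Fkbp11 were also lost at equal totals without acinar and hormone genes and with set 2 libraries that express Xist only. Fkbp11, a prolyl isomerase of secretory cells, had 50.4, 43.7 and 45.5 RPKM in set 1 controls and 69.8, 59.4 and 72.8 after Cop1 deletion, with no overlap (0.53, SE 0.12, adjusted p = 0.00761). In set 2 Fkbp11 had 42.9, 41.96, 48.5 and 60.2 RPKM in controls and 48.2, 52.6, 51.9 and 44.7 after deletion, where the groups overlapped (0.04, adjusted p = 0.824). The change of Fkbp11 did not pass the test for a difference between sets (0.49, adjusted p = 0.107). Pdia6, a disulfide isomerase that also acts on IRE1, had 174, 193 and 181 RPKM in set 1 controls and 254, 234 and 251 after deletion, again without overlap (0.43, SE 0.089, adjusted p = 0.00402). Its set 2 controls had 202, 189, 209 and 262 RPKM and its deletion libraries 230.3, 235, 252 and 239 (0.16, adjusted p = 0.15). Without control replicate 4, the highest of the set, Pdia6 was called in set 2.

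Pdia3 (ERp57), the disulfide isomerase that works with Calr and Canx, changed in both sets. It had 612, 589.5 and 596 RPKM in set 1 controls and 699, 692 and 717 after deletion (0.23, SE 0.057, adjusted p = 0.0139), and 550.4, 565, 584 and 602 against 656, 656, 617 and 652 in set 2 (0.17, SE 0.049, adjusted p = 0.024). In neither set did the groups overlap. The set 1 call was lost without Cop1 deletion replicate 4 (adjusted p = 0.059), and the set 2 call without control replicate 1 (adjusted p = 0.0796) or control replicate 2 (adjusted p = 0.0638). Equal totals, with or without acinar and hormone genes, and each set fitted alone also lost the set 2 call. Scaled to equal totals without Ins1 and Ins2, the set 2 value was -0.00143, where the median of all genes was -0.163, and the set 1 value was 0.22 (adjusted p = 0.111). Fkbp2, a prolyl isomerase of the ER lumen, had 106, 102 and 107 RPKM in set 1 controls and 138, 129 and 144 after deletion (0.38, SE 0.12, adjusted p = 0.0446). These groups did not overlap, yet the call was near the threshold and was kept under 18 of 39 other settings. It was lost without any 1 of the 10 set 1 libraries, and without either of control replicates 1 and 3 or any 1 of the 4 Etv4/5 libraries of set 2. Equal totals without Ins1 and Ins2 and median ratio scaling lost it too. In set 2, Fkbp2 had 93.5, 91.8, 98.7 and 114 RPKM in controls and 94.1, 149.5, 106 and 104 after deletion, with deletion replicate 2 the highest (0.17, adjusted p = 0.242). P4hb (PDI), the classical protein disulfide isomerase, had 0.30 (adjusted p = 0.22) in set 1 and 0.33 (adjusted p = 0.0572) in set 2, and rose over the mean of both sets (0.32, SE 0.091, adjusted p = 0.0182). As given above, this rise over the mean was lost under several scalings. Pdia4, a further disulfide isomerase, had 0.25 (adjusted p = 0.421) and -0.08 (adjusted p = 0.7). In the GENCODE annotation of GRCm38, 13 of the 42 members have exons that overlap those of another gene. Exons of Pdia6 and Pdia3 overlap exons of Atp6v1c2 and Catsper2 on the other strand by 50 and 18 bases, and whether the counting used strand is not given, so their values may hold reads of those genes.

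**Figure D3:**
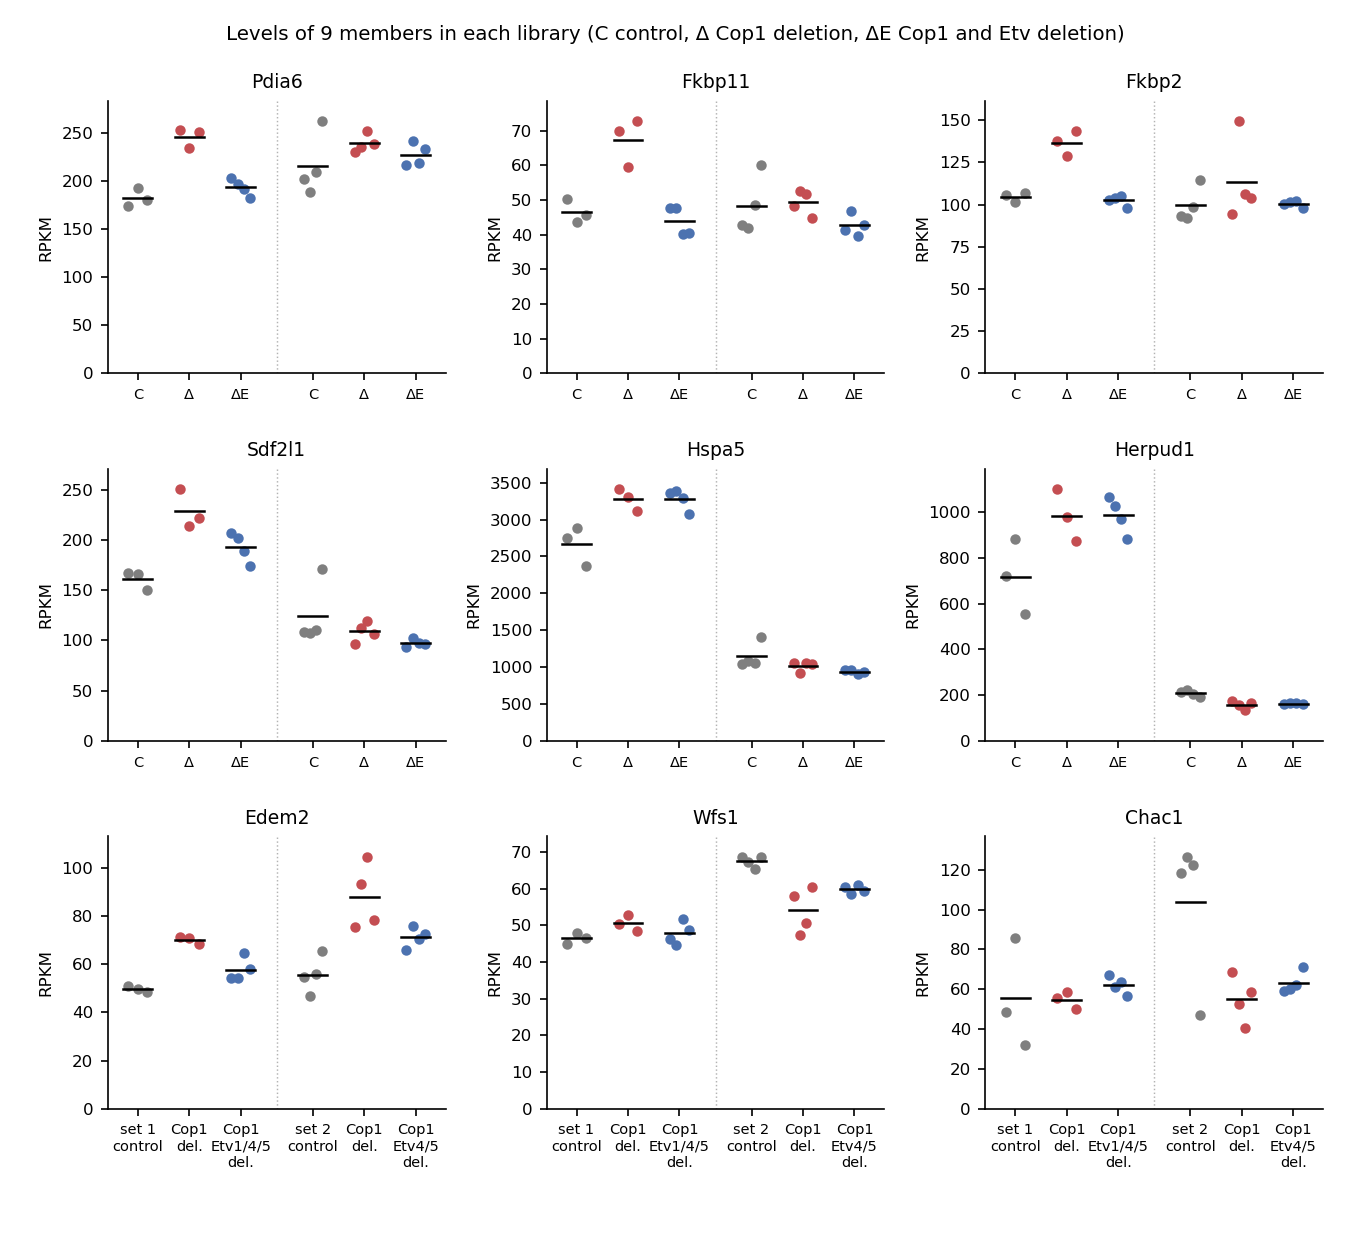
RPKM of 9 of the genes (Pdia6, Fkbp11, Fkbp2, Sdf2l1, Hspa5, Herpud1, Edem2, Wfs1 and Chac1) in every library, with points for libraries and bars for group means. Edem2 lies higher after Cop1 deletion in both sets without overlap, while Herpud1 lies higher in set 1 and lower in set 2.

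No stress sensor was called in set 1, and in set 2 Xbp1 rose and Wfs1 fell. Xbp1, whose spliced mRNA encodes the main activator of ER folding and degradation genes, had 234, 204, 211 and 207 RPKM in set 2 controls and 248, 251, 252 and 240.3 after Cop1 deletion, with no overlap (0.21, SE 0.057, adjusted p = 0.013). In set 1 it had 265, 273 and 235 RPKM in controls and 239, 235 and 212 after deletion (-0.17, SE 0.066, adjusted p = 0.134). The difference between sets passed the test (-0.38, SE 0.087, adjusted p = 0.0207). It did not pass under any of the 3 scalings to equal totals, nor did the set 2 change, which was at 0.19 (adjusted p = 0.0792) without Cop1 deletion replicates 2 and 3. The difference between sets was also lost without control replicate 1 or Cop1 deletion replicate 4 of set 1. RPKM per gene does not separate spliced from unspliced Xbp1. Wfs1 (wolframin), an ER membrane protein that restrains ATF6 and is abundant in β cells, had 68.7, 67.3, 65.3 and 68.7 RPKM in set 2 controls and 58.1, 47.4, 50.6 and 60.4 after deletion, with no overlap (-0.32, SE 0.065, adjusted p = 0.00185). In set 1 it had 45.0, 47.8 and 46.6 RPKM in controls and 50.4, 52.9 and 48.4 after deletion (0.12, adjusted p = 0.421), and the difference between sets was 0.44 (SE 0.099, adjusted p = 0.019). Without Cop1 deletion replicates 2 and 3, the lowest of that group, the set 2 value was -0.19 (adjusted p = 0.0337). With set 2 libraries that express Xist only, which also leaves out 2 Etv4/5 libraries, the same value had an adjusted p of 0.0549. The difference between sets was lost without control replicate 1 or Cop1 deletion replicate 3 of set 1.

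Ern1 (IRE1), the sensor that splices Xbp1, varied more between libraries than the other sensors. It had 32.7, 37.0 and 36.3 RPKM in set 1 controls and 66.6, 60.9 and 61.5 after deletion, with no overlap, but the spread in set 2 enters the test and it was not called (0.83, SE 0.34, adjusted p = 0.159). In set 2 Ern1 had 87.4, 82.5, 77.7 and 48.8 RPKM in controls and 113, 26.3, 88.3 and 84.6 after deletion (-0.07, SE 0.29, adjusted p = 0.89). The lowest value was that of Cop1 deletion replicate 2, and without this library, or with set 1 fitted alone, Ern1 was called in set 1. Atf6, the sensor that is itself cut to a transcription factor, had 26.2, 29.7 and 25.4 RPKM in set 1 controls and 32.3, 32.2 and 28.8 after deletion (0.19). In set 2 Atf6 had 53.2, 55.5, 51.3 and 32.4 RPKM in controls and 49.3, 21.8, 37.2 and 47.1 after deletion (-0.34, adjusted p = 0.229), with control replicate 4 and deletion replicate 2 low. Eif2ak3 (PERK), the kinase that slows translation, had -0.11 in set 1 and 0.12 in set 2 and was not called.

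In the ATF4 arm, Ddit3 and Chac1 fell in set 2, and none of the 4 genes was called in set 1. The median log2 fold change was -0.366 in set 2, where all 4 were below 0, and -0.0466 in set 1. Ddit3 (CHOP), a transcription factor tied to cell death under prolonged stress, had 140.0, 159, 113 and 70.4 RPKM in set 2 controls and 95.4, 76.0, 54.0 and 90.5 after deletion (-0.58, SE 0.19, adjusted p = 0.0381). The groups overlapped through control replicate 4, and without that library the value was -0.81 (adjusted p = 0.000716). Without Cop1 deletion replicates 2 and 3 it was -0.31 (adjusted p = 0.369), and the call was also lost without either of them alone and without any 1 of the other 3 controls. In set 1 it had 340.3, 322 and 279 RPKM in controls and 334, 307 and 297 after deletion, a log2 fold change of -0.00 (adjusted p = 0.999). Its exons overlap those of Mars on the other strand by 68 bases.

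Chac1, a target of ATF4 that breaks down glutathione, had 118, 127, 123 and 47.3 RPKM in set 2 controls and 68.5, 52.8, 40.4 and 58.4 after deletion (-0.83, SE 0.27, adjusted p = 0.0405). Control replicate 4 lay among the deletion libraries, and the other 3 controls lay well above them. Without that control the value was -1.17 (adjusted p = 0.00088), and without deletion replicates 2 and 3 it was -0.61 (adjusted p = 0.286). The call was also lost without either of these deletion libraries alone, without any 1 of the other 3 controls, and without Etv4/5 replicate 2 or 3 or Etv1/4/5 replicate 2. In set 1 Chac1 had 48.4, 85.8 and 32.0 RPKM in controls and 55.4, 58.4 and 49.9 after deletion (0.09, adjusted p = 0.928). Neither Ddit3 (0.58, adjusted p = 0.313) nor Chac1 (0.92, adjusted p = 0.268) passed the test for a difference between sets. Atf4 itself had 349, 368, 335 and 268 RPKM in set 2 controls and 332, 315, 263 and 317 after deletion, and its log2 fold change was -0.10. In set 1 it had 341, 382 and 279 RPKM against 319.7, 310.2 and 303, within the range of the controls (-0.09). Ppp1r15a (GADD34), which restores translation by leading a phosphatase to eIF2α, had 249.96, 232 and 270.4 RPKM in set 1 controls and 177, 211 and 209 after deletion, without overlap and without passing the test (-0.34, adjusted p = 0.589). In set 2 it had 88.7, 119.6, 94.9 and 49.1 RPKM against 119, 60.4, 48.2 and 92.9 (-0.15, adjusted p = 0.696).

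Among the 8 genes of ER-associated degradation, Edem2 rose in both sets and Herpud1 changed in opposite directions. Edem2, which trims mannose from glycoproteins that are to be degraded, had 51.0, 49.8 and 48.4 RPKM in set 1 controls and 71.4, 71.1 and 68.2 after Cop1 deletion (0.49, SE 0.11, adjusted p = 0.00906). In set 2 it had 54.6, 46.7, 56.1 and 65.4 RPKM in controls and 75.5, 93.4, 105 and 78.3 after deletion (0.65, SE 0.098, adjusted p = 0.00015). In both sets every deletion library was above every control. Over the mean of both sets its change was 0.57 (SE 0.075, adjusted p = 2.26e-05), the largest rise among the 42. The set 2 call was kept under all 39 other settings, with values of 0.47 to 0.73, and the set 1 call under all but the minimum of 1.5-fold.

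Herpud1, a membrane scaffold of the degradation complex and a target of both ATF6 and ATF4, had 721, 881 and 553 RPKM in set 1 controls and 1102, 977 and 875 after deletion (0.47, SE 0.13, adjusted p = 0.0241). The groups overlapped through the library labelled control replicate 2. In set 2 Herpud1 had 213, 221, 204 and 194 RPKM in controls and 174, 158, 136 and 165 after deletion, without overlap (-0.40, SE 0.11, adjusted p = 0.0161). The difference between sets was 0.87 (SE 0.17, adjusted p = 0.007), and it was kept under 37 of 38 other settings. The set 1 call was lost without control replicate 1 or 3 or Cop1 deletion replicate 2 or 3. It was also lost with each set fitted alone and at equal totals without Ins1 and Ins2. The set 2 call was lost without Cop1 deletion replicate 3 (adjusted p = 0.0505) and without replicates 2 and 3 together. With set 2 libraries that express Xist only, the set 2 call was lost as well. Derl2, a channel component through which proteins leave the ER, had 29.8, 30.9 and 29.1 RPKM in set 1 controls and 27.5, 24.9 and 21.8 after deletion, without overlap (-0.28, SE 0.07, adjusted p = 0.0167). The call was lost without control replicate 1 or 2 or Cop1 deletion replicate 4, and with all libraries scaled to equal totals (-0.15, adjusted p = 0.359) or to equal totals without Ins1 and Ins2. In set 2 Derl2 had 33.5, 33.1, 30.8 and 29.1 RPKM in controls and 30.8, 29.2, 29.7 and 31.4 after deletion (-0.06, adjusted p = 0.51), and its exons overlap those of Mis12 on the other strand by 231 bases.

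The other degradation genes were not called. Derl3, a stress-induced relative of Derl2, had 23.8, 24.5 and 14.8 RPKM in set 1 controls and 41.4, 29.4 and 33.6 after deletion (0.73, SE 0.42, adjusted p = 0.363). In set 2 Derl3 had 3.48, 3.07, 3.64 and 17.3 RPKM in controls and 3.91, 3.50, 6.21 and 2.45 after deletion (-0.40, adjusted p = 0.471). Control replicate 4 was the highest library of set 2, above the range of 1.99 to 6.21 RPKM in the others. Edem1, a relative of Edem2, had 27.1, 33.3 and 18.7 RPKM in set 1 controls and 27.4, 24.2 and 23.8 after deletion (-0.03), and in set 2 it had 36.3, 36.7, 30.7 and 51.1 against 27.0, 29.5, 34.4 and 30.2 (-0.33, adjusted p = 0.109). Sel1l and Syvn1, the scaffold and the ubiquitin ligase of the degradation complex, each had 0.18 in set 1, and -0.12 and -0.15 in set 2. Derl1 had 0.10 in set 1 and -0.16 in set 2.

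Among the 8 genes of translocation and signal peptide removal, Spcs1 rose in set 1 and none was called in set 2. All 8 were above 0 in set 1 (median 0.211), and 4 of 8 in set 2 (median 0.00646). Spcs1, a subunit of the signal peptidase complex, had 78.9, 76.6 and 73.4 RPKM in set 1 controls and 89.4, 89.4 and 94.6 after deletion, without overlap (0.25, SE 0.062, adjusted p = 0.014). The call was lost without control replicate 3 or Cop1 deletion replicate 4. In set 2 Spcs1 had 76.4, 73.7, 76.9 and 71.3 RPKM in controls and 73.6, 85.0, 74.5 and 72.6 after deletion (0.03, adjusted p = 0.706). Exons of Spcs1 overlap those of Glt8d1 on the other strand by 223 bases. Ssr2, a subunit of the translocon-associated TRAP complex and the most abundant of the role, had 135, 139 and 137 RPKM in set 1 controls and 165, 163 and 158 after deletion, without overlap (0.24, adjusted p = 0.0664). In set 2 Ssr2 had 194, 194, 205 and 237 against 207, 252, 231 and 218 (0.13, adjusted p = 0.19), and over the mean of both sets it rose (0.19, SE 0.053, adjusted p = 0.0162). The Ssr2 call over the mean was lost at equal totals without Ins1 and Ins2 and without acinar and hormone genes. Leaving out Cop1 deletion replicates 2 and 3 of set 2, or set 2 libraries without Xist, lost it too. Spcs2, a partner subunit of Spcs1 with a pseudogene copy that may share its reads, had 80.0, 84.8 and 76.3 RPKM in set 1 controls and 92.8, 89.6 and 89.1 after deletion, without overlap (0.17, adjusted p = 0.0825). In set 2 Spcs2 had 72.9, 70.4, 70.6 and 71.9 against 66.0, 78.8, 72.1 and 75.8, a wider range than its controls (0.03). Sec61b, a subunit of the translocation channel, had 43.7, 36.7 and 44.0 RPKM in set 1 controls and 43.4, 43.5 and 43.7 after deletion (0.07). In set 2 Sec61b had 35.5, 35.7, 37.0 and 37.1 against 37.6, 50.02, 38.8 and 39.1, with deletion replicate 2 the highest (0.18, adjusted p = 0.107). The other translocation genes Sec61a1, Sec61g, Ssr1 and Ssr3 were not called in either set.

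In 4 members the change after Cop1 deletion differed between the sets (9.52% of members, background 2.83%). It was higher in set 1 for Herpud1, Sdf2l1 and Wfs1, and lower in set 1 for Xbp1. For Sdf2l1 the difference was 0.67 (SE 0.17, adjusted p = 0.0443), and it was kept under 17 of 38 other settings. With set 2 libraries that express Xist only, none of the 4 differences was called (adjusted p = 0.0512 for Herpud1, 0.0657 for Wfs1, 0.0695 for Xbp1 and 0.0735 for Sdf2l1). The median difference over the 42 was 0.266, and 34 were above 0. Under a scaling to equal totals without Ins1 and Ins2, the median difference was 0.425 while that of all genes was 0.156.

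**Figure D4:**
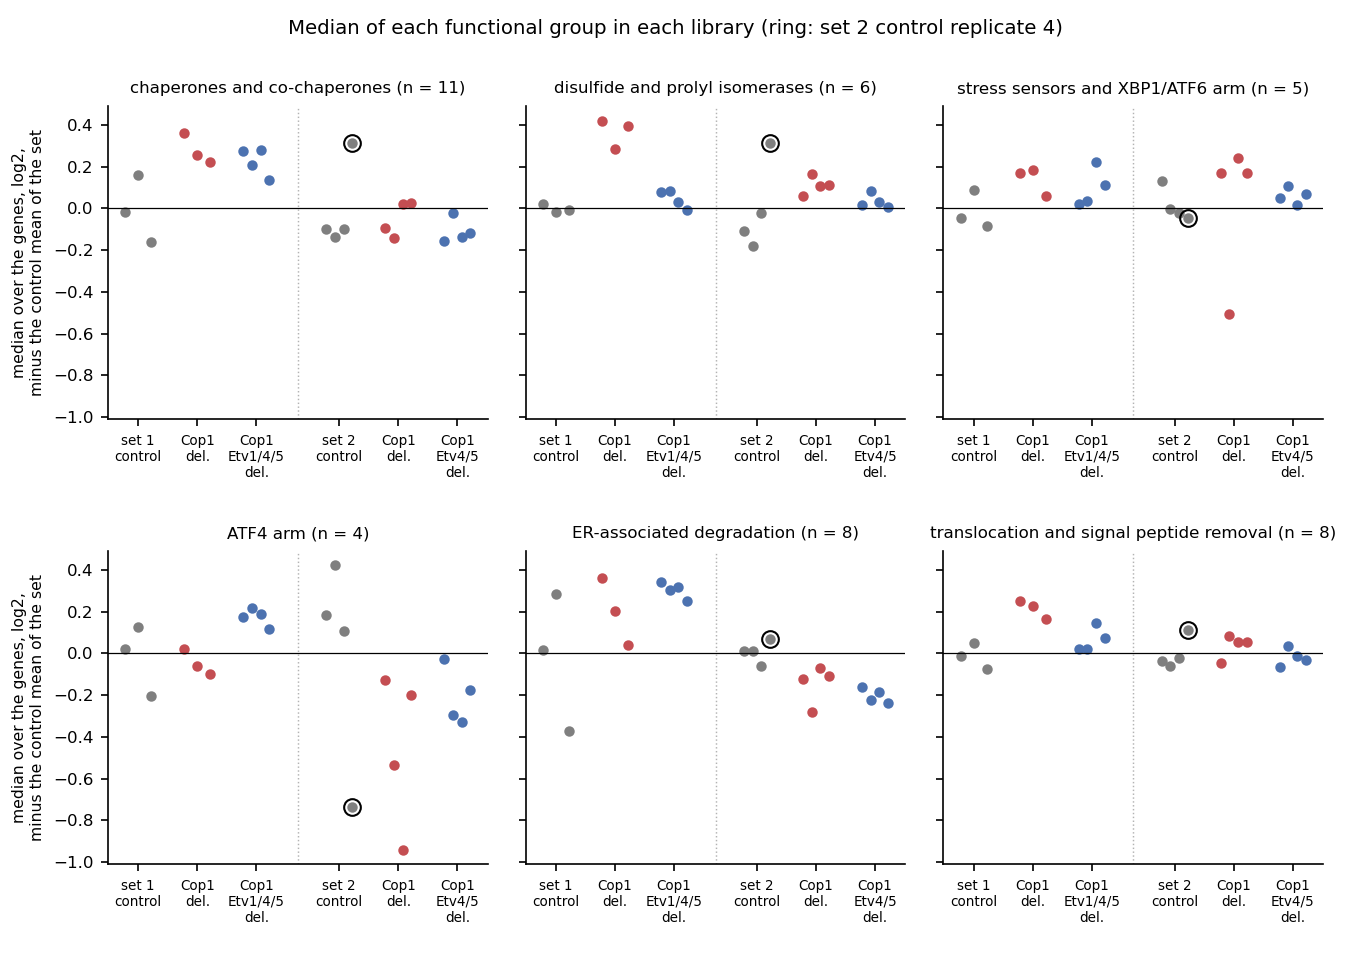
Median over the genes of each role in each library, as log2(RPKM + 0.5) minus the mean of the controls of the same set, with a ring around control replicate 4 of set 2. The isomerases of set 1 Cop1 deletion libraries lie between 0.283 and 0.417, above all other set 1 libraries, and the ringed control stands at 0.311 for isomerases and -0.738 for the ATF4 arm.

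The libraries labelled Etv1/4/5 were set against Cop1 deletion in set 1, with Etv4 higher (log2 fold change 1.63, adjusted p = 3.94e-05) and neither Etv1 (0.15) nor Etv5 (0.33) called. 5 members fell (background 2.69%) and none rose, or 11.9% of members against 6.34% of genes in either direction, with a median of -0.0632. These were Fkbp11, Pdia6, Fkbp2, Pdia3 and Spcs1, which all rose in set 1 after Cop1 deletion. Both comparisons share the Cop1 deletion libraries, so a high value there moves them in opposite directions. Fkbp11 had 47.7, 47.7, 40.3 and 40.4 RPKM in the Etv1/4/5 libraries, all below the Cop1 deletion libraries (-0.61, SE 0.11, adjusted p = 0.00177), and this call was kept under all 39 other settings. Pdia6 had 203, 197, 192 and 182 RPKM, again below all Cop1 deletion libraries (-0.35, SE 0.083, adjusted p = 0.0146), and this call was lost without Cop1 deletion replicate 2 (adjusted p = 0.0689) or 4 (adjusted p = 0.0684). The Pdia6 call was also lost at equal totals without Ins1 and Ins2. Against controls, Fkbp11 was at -0.08 (adjusted p = 0.956) and Pdia6 at 0.09 (adjusted p = 0.9).

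Fkbp2 had 103, 104, 105 and 98.0 RPKM in the Etv1/4/5 libraries, against 129 to 144 after Cop1 deletion and 102 to 107 in controls (-0.41 against Cop1 deletion, SE 0.11, adjusted p = 0.0236). Pdia3 had 624, 629, 609 and 593 RPKM, against 692 to 717 after Cop1 deletion (-0.20, SE 0.053, adjusted p = 0.0304). Spcs1 had 77.8, 77.9, 70.9 and 73.1 RPKM, against 89.4 to 94.6 after Cop1 deletion (-0.28, SE 0.058, adjusted p = 0.005). In these 3 genes the Etv1/4/5 libraries did not overlap those of Cop1 deletion and lay within or next to the range of controls. The Fkbp2 call was lost without Cop1 deletion replicate 2 or 4 or Etv1/4/5 replicate 1 or 4. The Pdia3 call was lost without any single Cop1 deletion library of set 1 and without Etv1/4/5 replicate 1, 3 or 4. It was also lost at equal totals without Ins1 and Ins2 and without acinar and hormone genes. The number called was 3, with 1 rising, without Cop1 deletion replicate 2, which was Fkbp11 and Spcs1 falling and Derl2 rising. It was 2 without Cop1 deletion replicate 4, and 3 without Etv1/4/5 replicate 1 or replicate 4. Without control replicate 4 of set 2 or Cop1 deletion replicate 2 of set 2 it was 8, 2 rising and 6 falling.

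No chaperone and no degradation gene was called between the Etv1/4/5 and Cop1 deletion libraries in the main model. Dnajc3 and Edem2 were called at equal totals, with each set fitted alone and with set 2 libraries that express Xist only, among other settings. Derl2 and Sdf2l1 were called under some settings as well. Dnajc3 had 105, 104, 105 and 102 RPKM in the Etv1/4/5 libraries, below the 119 to 128 after Cop1 deletion. Herpud1 had 1067, 1026, 969 and 881 RPKM there, within the range after Cop1 deletion (0.00, adjusted p = 0.992), and was at 0.48 against controls (adjusted p = 0.0536). Hspa5 had 3360.0, 3392, 3289.5 and 3070.1 RPKM, with -0.00 against Cop1 deletion (adjusted p = 0.995) and 0.30 against controls (adjusted p = 0.159). Sdf2l1 had 206, 202, 189 and 174 RPKM, below the Cop1 deletion libraries and above the controls, and neither difference passed (-0.25, adjusted p = 0.293, and 0.26, adjusted p = 0.505). Edem2 had 54.2, 54.1, 64.7 and 57.9 RPKM, likewise between the groups (-0.28, adjusted p = 0.128, and 0.21, adjusted p = 0.551). Xbp1 had 261, 264, 269.7 and 257 RPKM, above the Cop1 deletion libraries (0.20, adjusted p = 0.057).

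Against controls, no member was called in the Etv1/4/5 libraries by limma (background 1.32%). At an unadjusted p below 0.05 there were 9, and the median was 0.126, with 36 of 42 above 0. The chaperones had a median of 0.251 and the degradation genes 0.311, against 0.0482 for the isomerases and 0.0447 for translocation. With library weights 15 rose, as did 1627 of the 14342 genes, while 1395 genes and no member fell. Without the library labelled control replicate 2, Sel1l, Dnajb9, Herpud1 and Syvn1 rose, and without control replicate 4 of set 2, Hspa5 and Herpud1 rose.

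**Figure D5:**
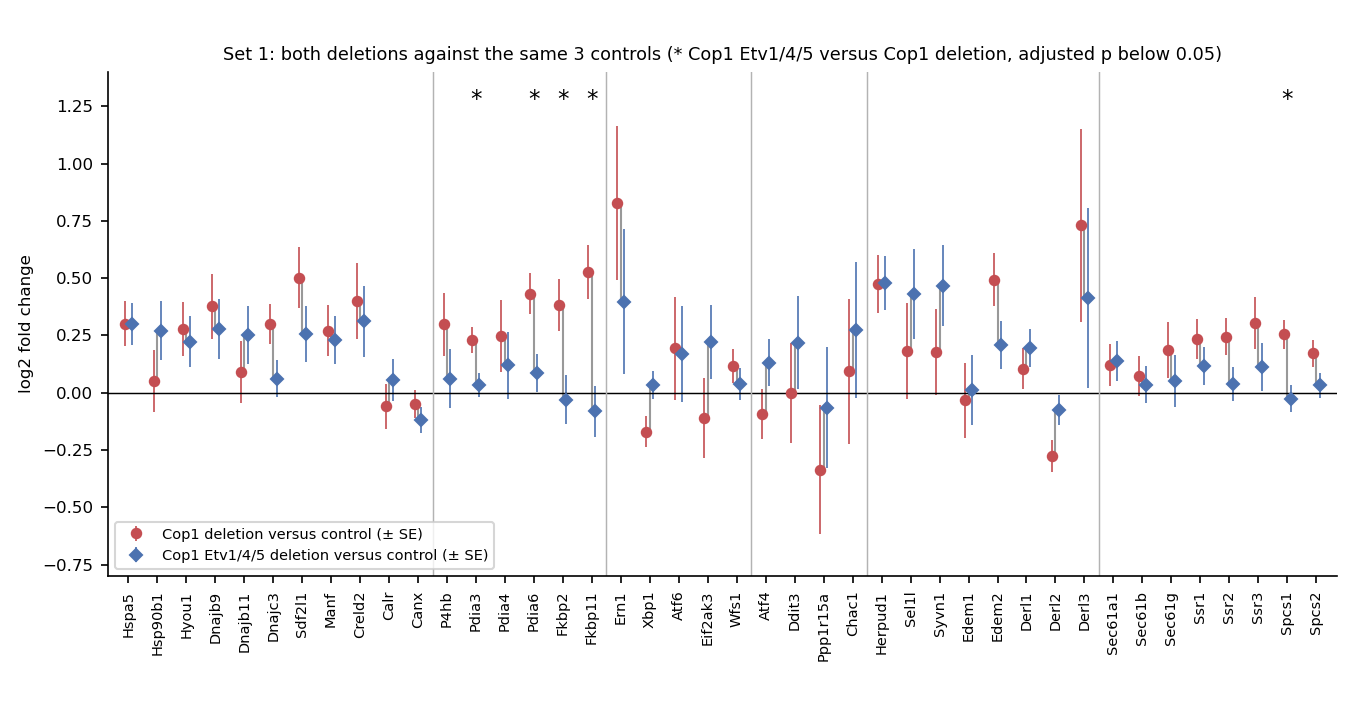
Log2 fold change of each of the 42 genes in set 1, for Cop1 deletion and for the Etv1/4/5 libraries against the same 3 controls, with a star where the Etv1/4/5 libraries differ from Cop1 deletion. Fkbp11, Pdia6, Fkbp2, Pdia3 and Spcs1 carry a star, and Hspa5 and Herpud1 lie at about the same height in both comparisons.

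In set 2, no member was called between the Etv4/5 and Cop1 deletion libraries by limma (background 1.73%). At an unadjusted p below 0.05 there were 4, the median was -0.0342, and 5 fell with library weights, as did 1544 of all genes. Edem2 had 66.0, 75.9, 70.4 and 72.6 RPKM in the Etv4/5 libraries, above all controls and, but for 1 library, below Cop1 deletion (-0.29 against Cop1 deletion, adjusted p = 0.116). Against controls, 2 members rose and none fell (background 8.74%), with a median of -0.0512. Edem2 was at 0.36 (SE 0.098, adjusted p = 0.0262), a call kept under 29 of 39 other settings. It was lost without control replicate 1 or 2 or Etv4/5 replicate 2, 3 or 4. The 3 scalings to equal totals, each set fitted alone and a minimum of 1.5-fold lost it too. Xbp1 had 249, 248, 228 and 247 RPKM in the Etv4/5 libraries (0.19, SE 0.057, adjusted p = 0.0471). The Xbp1 call was kept under 14 of 39 other settings, and the number called was between 0 and 6 when each library in turn was left out. Wfs1 had 60.4, 58.7, 61.0 and 59.3 RPKM, between controls and most Cop1 deletion libraries (0.15 against Cop1 deletion, adjusted p = 0.184, and -0.17 against controls, adjusted p = 0.108). Herpud1 had 159.9, 167, 166 and 162 RPKM (-0.35 against controls, adjusted p = 0.0575), and Chac1 had 59.0, 60.3, 62.1 and 70.9 RPKM (-0.61, adjusted p = 0.192). Whether the added deletions act differently in the 2 sets was not tested, and they are of different genotypes.

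Genes around the 42 were read from lists of the same pathways, against the background of all genes tested. That was 4.04% rising and 4.29% falling in set 1, 9.09% and 9.75% in set 2, and 2.69% falling in the Etv1/4/5 libraries against Cop1 deletion. Of 14 genes of N-glycosylation and glycoprotein quality control, 8 rose in set 1, 5 rose in set 2 and none fell, with medians of 0.27 and 0.0522, and 6 fell in the Etv1/4/5 libraries against Cop1 deletion (median -0.259). Rpn2, a subunit of the oligosaccharyltransferase, had 0.42 in set 1 (SE 0.0522, adjusted p = 3e-05), 0.15 in set 2 (adjusted p = 0.0226) and -0.34 with the added Etv1/4/5 genotype (adjusted p = 0.000201). Mogs, the glucosidase that makes the first cut in the glycan, had 0.48 in set 1 (adjusted p = 0.000104) and -0.37 with the added genotype (adjusted p = 0.000834). In set 2, Prkcsh, a glucosidase subunit, had 0.29 (adjusted p = 0.000634).

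Of 20 other oxidative folding genes and co-chaperones, 5 rose and 1 fell in set 1 (4.04% and 4.29% of all genes). In set 2, 6 rose and 1 fell (9.09% and 9.75% of all genes). Ero1b, the β-cell oxidase that recharges disulfide isomerases, went the other way from them, with -1.18 in set 1 (SE 0.162, adjusted p = 9.39e-05) and higher levels in both added Etv genotypes than after Cop1 deletion (0.85, adjusted p = 0.00154, and 0.71, adjusted p = 0.0206). Prdx4, a peroxidase of the ER, had 0.56 (adjusted p = 0.0079) and 0.67 (adjusted p = 0.000294). Sil1, a nucleotide exchange factor of BiP, had 0.63 in set 2 (adjusted p = 0.000121), and Dnajc10, a disulfide reductase, had 0.45 in set 1 (adjusted p = 0.00011).

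Of 16 other translocation genes, 3 rose in set 1 (4.04% of all genes rose), while 1 rose and 1 fell in set 2 (9.09% and 9.75% of all genes). Sec11c, a catalytic subunit of the signal peptidase, had 0.65 in set 1 (adjusted p = 3.14e-05), 0.63 in set 2 (adjusted p = 6.97e-06) and -0.54 with the added Etv1/4/5 genotype (adjusted p = 0.000177). Of 19 other degradation genes, 2 rose in set 1, and 4 rose and 3 fell in set 2, against the same shares of all genes. Erlec1, an ER lectin, had 0.49 (adjusted p = 2.36e-05) and 0.25 (adjusted p = 0.00201), and -0.49 with the added Etv1/4/5 genotype (adjusted p = 2.56e-05). Of 17 other ATF4 and CHOP targets, none was called in set 1, and 1 rose and 5 fell in set 2 (median -0.323). Among these, Nars and Aars, which charge tRNAs with asparagine and alanine, had -0.53 (adjusted p = 0.00166) and -0.58 (adjusted p = 0.00179).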

How the data were processed

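RNA from islets was sequenced and the values were deposited by the authors as RPKM per gene, in 1 table of 28059 genes identified by NCBI Gene number and 24 library columns. The submitters' processing notes name mm9 as the build. Which aligner, counter and annotation were used, and whether strand was, is not given in the sources used here. Columns were matched to samples by the sample number in their labels. 2 columns were not used: 1 bears a number that the labels give to both a control and a Cop1 deletion sample, and 1 a number given to none, so 1 control and 1 Cop1 deletion sample of set 1 were not analysed here. Symbols were found for 24998 genes. Read numbers are unknown, so limits of counting are not given. Relative depth only was taken from the commonest ratio of low values between libraries. Among genes low in every library, 88.2 to 91.6% of the nonzero values in a library were whole multiples of the smallest depth-scaled value of the gene.

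Values were taken as log2(RPKM + 0.5), which understates changes of low genes, for the 14342 genes that reached 1 RPKM in 4 or more libraries. One limma model (version 3.58.1, R 4.3.3, with trend and robust variance) was fitted to the 6 groups and read in 8 two-sided comparisons, with Benjamini-Hochberg adjustment over all 14342 genes. A gene was called, and is said to have risen or fallen, at an adjusted p below 0.05. The model was checked on simulated data. The 42 members, the lists of other genes and the tests were chosen with earlier results of these data known. Any member could be named. Values in every library are for the most abundant member of each role and up to 4 with the smallest adjusted p. From each list of other genes up to 3 called genes with the smallest adjusted p were eligible. Alternatives were other pseudocounts, filters and scalings, each set alone, library weights, acinar or heat shock level as a covariate, and leaving out libraries. The list of other regulators of the response is not reported here.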

Additional observations from a re-analysis of the deposited data

Results flagged for a closer look

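Within each group of 4 libraries, a value was picked out where its gap to the nearest of the others was a large share of the range (Dixon's test at 95%), which chance gives in about 1 in 20 groups. It did so in 22 of 168 groups of the 42 genes. Control replicate 4 of set 2 gave 12 of the 22. It was high for Hspa5 (1409.6 RPKM, others at most 1083), Hsp90b1 (827, others at most 623), Hyou1 (355, others at most 255), Dnajb11 (66.6, others at most 49.5) and Sdf2l1 (171, others at most 111). It was also high for Creld2 (159, others at most 101), Calr (717, others at most 518), P4hb (795, others at most 532) and Pdia4 (185, others at most 114). In ER-associated degradation it was high for Syvn1 (60.1, others at most 37.4) and Derl3 (17.3, others at most 3.64). It was low for Chac1 (47.3, others at least 118).

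Among the Cop1 deletion libraries of set 2, replicate 3 was high for P4hb (956 RPKM, others at most 691) and low for Pdia3 (617, others at least 652). Replicate 2 was low for Sel1l (36.5, others at least 61.2) and high for Sec61b (50.02, others at most 39.1) and Spcs1 (85.0, others at most 74.5). Among the Etv4/5 libraries, replicate 2 was high for P4hb (638, others at most 599.5) and Sec61g (5.00, others at most 4.10). Replicate 1 was high for Ern1 (101, others at most 92.8), and replicate 3 was low for Xbp1 (228, others at least 247). Among the Etv1/4/5 libraries of set 1, replicate 4 was low for Dnajc3 (102, others at least 104).

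The change after Cop1 deletion differed between the sets by limma's test of the difference for Wfs1 (0.44), Xbp1 (-0.38), Sdf2l1 (0.67) and Herpud1 (0.87). These are log2 fold changes in set 1 minus those in set 2. Without control replicate 4 of set 2, which stood apart for Sdf2l1, the median difference over the 42 genes was 0.152.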

How the results depend on the processing

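No paired analysis was possible because the replicate numbers were given in accession order and tie no libraries across groups. Counts are of the 42 genes called. The share of all genes called also moves with the setting and is mostly not given here. These counts therefore show only how the calls depend on processing. Library weights called more of all genes too, as given above for the Etv1/4/5 and Etv4/5 libraries. Pseudocounts of 0.1 and 1 and a filter of 10 libraries moved no count by over 1.5 times. With a minimum of 1.5-fold, 0 were called in set 1, 2 in set 2, 0 over the mean, 2 for the difference between sets, 1 for Etv1/4/5 against Cop1 deletion and 0 for Etv4/5 against control. With each set fitted alone, the counts were 17 in set 1, 4 in set 2, 11 for Etv1/4/5 against Cop1 deletion and 1 for Etv4/5 against control, which was also 1 with no filter and 1 without trend and robust variance. At equal totals, 7 were called for the difference, 9 for Etv1/4/5 against Cop1 deletion and 1 for Etv4/5 against control, with medians of 0.347 in set 1, 0.471 for the difference and -0.209 for Etv1/4/5 against Cop1 deletion. There, 238 of all genes rose and 1390 fell for Etv1/4/5 against Cop1 deletion (523 and 386 as deposited), with a median of -0.131. At equal totals without Ins1 and Ins2, 4 were called in set 1, 3 over the mean, 3 for Etv1/4/5 against Cop1 deletion and 5 for Etv4/5 against control, with medians of -0.234 in set 2, -0.0101 over the mean, 0.425 for the difference and -0.17 for Etv4/5 against control. Pdia3 was at -0.00143 in set 2 there, where the median of all genes was -0.163. At equal totals without acinar and hormone genes, 5 were called over the mean, and medians were -0.181 in set 2 and 0.391 for the difference. Median ratio scaling called 1 for Etv1/4/5 against control. Library weights called 28 in set 1, 17 in set 2, 27 over the mean, 19 for the difference, 20 and 15 for Etv1/4/5 against Cop1 deletion and control, and 5 and 16 for Etv4/5 against the same, with a median of 0.0329 in set 2. With set 2 libraries that express Xist only, 2 were called in set 2, 0 for the difference and 8 for Etv1/4/5 against Cop1 deletion. Without Cop1 deletion replicates 2 and 3 of set 2, 3 were called in set 2, 10 and 1 for Etv1/4/5 against Cop1 deletion and control, and 6 for Etv4/5 against control.

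After seeing the data, 2 settings were added. Without those libraries and control replicate 4 of set 2 together, 22 were called in set 1, 18 over the mean, 10 for the difference, 14 and 5 for Etv1/4/5 against Cop1 deletion and control, and 12 for Etv4/5 against control. With heat shock level as a covariate, 6 were called for Etv4/5 against control. With each of the 22 libraries left out in turn, between 5 and 16 were called in set 1 (medians 0.145 to 0.277), 4 and 11 in set 2 (-0.0921 to 0.0216), 8 and 17 over the mean (0.0232 to 0.128), and 1 and 7 for the difference (0.152 to 0.361). Between 2 and 8 were called for Etv1/4/5 against Cop1 deletion (-0.0963 to -0.0298), 0 and 4 against control (0.0506 to 0.213), 0 and 0 for Etv4/5 against Cop1 deletion (-0.0605 to -0.029) and 0 and 6 against control (-0.0679 to -0.0261). The cause of these changes was not tested.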

Other observations

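The level of several of the 42 genes differed between the 2 sets in every group, a difference in which all features that separate the sets cannot be told apart. Mean RPKM in controls was 3.45 times as high in set 1 as in set 2 for Herpud1, 2.85 times for Ppp1r15a, 2.6 times for Ddit3, 2.33 times for Hspa5 and 1.49 times for Calr, where the median ratio over all genes tested was 0.892. In these 5 genes, no library of set 1 overlapped any of set 2. Ssr2, Ssr1 and Sec61a1, which serve translocation, were lower in set 1, at ratios of 0.66, 0.673 and 0.722, also without overlap. The share of all genes tested without overlap between the sets is not given here, so the lack of overlap is not read as particular to these genes. The heat shock and immediate early sum was 1910.0 to 6809 RPKM in set 1 and 80.5 to 221 in set 2, and its part in these levels was not tested.

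Of 23 genes of transport between ER and Golgi, 3 rose in set 1 (4.04% of all genes rose), and 1 rose and 5 fell in set 2 (9.09% and 9.75% of all genes). Mcfd2, a partner of a cargo receptor for glycoproteins, had a log2 fold change of 0.47 in set 1 (adjusted p = 0.00306). Sec16b, a scaffold of ER exit sites, had 0.76 in set 1 (adjusted p = 0.00489) and -0.67 in the Etv1/4/5 libraries against Cop1 deletion (adjusted p = 0.00936). Sec23a and Sec24c, subunits of the COPII coat, had -0.44 (adjusted p = 0.00819) and -0.26 (adjusted p = 0.0176) in set 2.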
